A study of Penicillium oxalicum with 72 samples.

Results

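Transcript levels of the cellobiohydrolase genes *POX05587/Cel7A-2* and *POX04786/Cel6A* of *Penicillium oxalicum* were followed in all 72 libraries of a carbon source time course. Both genes were chosen by their identifiers, as 2 of the 9821 genes listed in at least 1 library, and both had a value above 0 in every library. They are 2 of the 3 genes that the study annotates as cellobiohydrolases, the other being *POX02490/Cel7A-1*. All groups were strain Δ*PoxKu70* (named MuKu70 in the labels), which was made from strain HP7-1 by deleting *PoxKu70*, a gene of non-homologous end joining, and the control carried the same deletion. Hyphae were first grown on glucose, for 24 h by the study's methods but 72 h by its supplementary figure legends. They were then washed and moved to basic medium. It held 1% (w/v) Avicel (AV, crystalline cellulose), wheat bran (WB), methylcellulose (MC), 2-hydroxyethyl cellulose (HEC), glucose (GLU) or no carbon source (NC). Mycelium was harvested 4, 12, 24 and 48 h later, which gave 24 conditions of 3 replicates each, named replicate 1, 2 and 3 here after the letters F, S and T of the short names.

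Cellobiohydrolases are secreted enzymes that move along a cellulose chain and release cellobiose, the disaccharide of glucose. Enzymes of glycoside hydrolase family GH7 such as Cel7A work from the reducing end of the chain, those of family GH6 such as Cel6A from the non-reducing end, and endoglucanases supply new ends by cutting inside the chain. In the study's annotation both proteins carry a carbohydrate-binding module of family CBM1 beside the catalytic domain. In cellulolytic ascomycetes such genes are known to be induced by cellulose and its soluble fragments and repressed by glucose. MC and HEC are cellulose ethers with methyl and hydroxyethyl groups on the chain.

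Levels are given in FPKM, mapped fragments scaled by transcript length and by library size, which are per length and can be compared between genes. The libraries listed 9243 to 9568 genes, with summed FPKM of 924393 to 1255914. The FPKM files do not give read counts, so the number of reads behind a value is unknown, and values under 1 FPKM in particular carry no counting interval here. By their correlation over 8898 genes, 71 libraries were most like another replicate of their own condition. The exception was AV at 12 h replicate 1, whose nearest library was HEC at 12 h replicate 2 (Pearson r = 0.9795 across genes, which are not independent replicates). Its r with AV at 12 h replicate 2 was nearly the same, 0.977, and that with replicate 3 was 0.9497. The fold changes, ratio tests and list counts that use AV at 12 h were also computed without AV at 12 h replicate 1. The 12 HEC libraries are called methyl cellulose in the words of their titles and in their culture condition, and HEC only in the short name, so that which ether they stand for rests on that name, and NC at 24 h replicate 3 is given 2 different times. The short names were followed, and that NC library was closer to the other NC libraries at 24 h (r of at least 0.988) than to any NC library at 4 h (r of at most 0.88). Mycelium was measured in bulk, so that more transcript per cell and more cells with transcript cannot be told apart.

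The highest levels of both genes were found on MC, where they rose at each later harvest and reached the top of the transcriptome. On MC, *Cel7A-2* had 799, 726 and 1133 FPKM at 4 h and 9887, 6667 and 7398 FPKM at 12 h in replicates 1, 2 and 3. Its level was 19666, 16138 and 15675 FPKM at 24 h and 27541, 26146 and 30519 FPKM at 48 h. No library overlapped with one of another harvest. *Cel6A* on MC had 1112, 895 and 1245 FPKM at 4 h and 8859, 6114 and 7806 FPKM at 12 h. Its level went on to 19397, 15899 and 16149 FPKM at 24 h and 38891, 31353 and 42615 FPKM at 48 h, again without overlap between harvests. In each of the 3 MC libraries at 48 h *Cel6A* was at rank 2 of all genes by FPKM, and *Cel7A-2* stood at rank 4. At 24 h the ranks were 2 to 4 for *Cel7A-2* and 3 to 4 for *Cel6A*. The pair made up 0.166 to 0.239% of the summed FPKM at 4 h, 1.31 to 1.94% at 12 h, 3.31 to 4.11% at 24 h and 5.84 to 7.14% at 48 h.

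**Figure D1:**
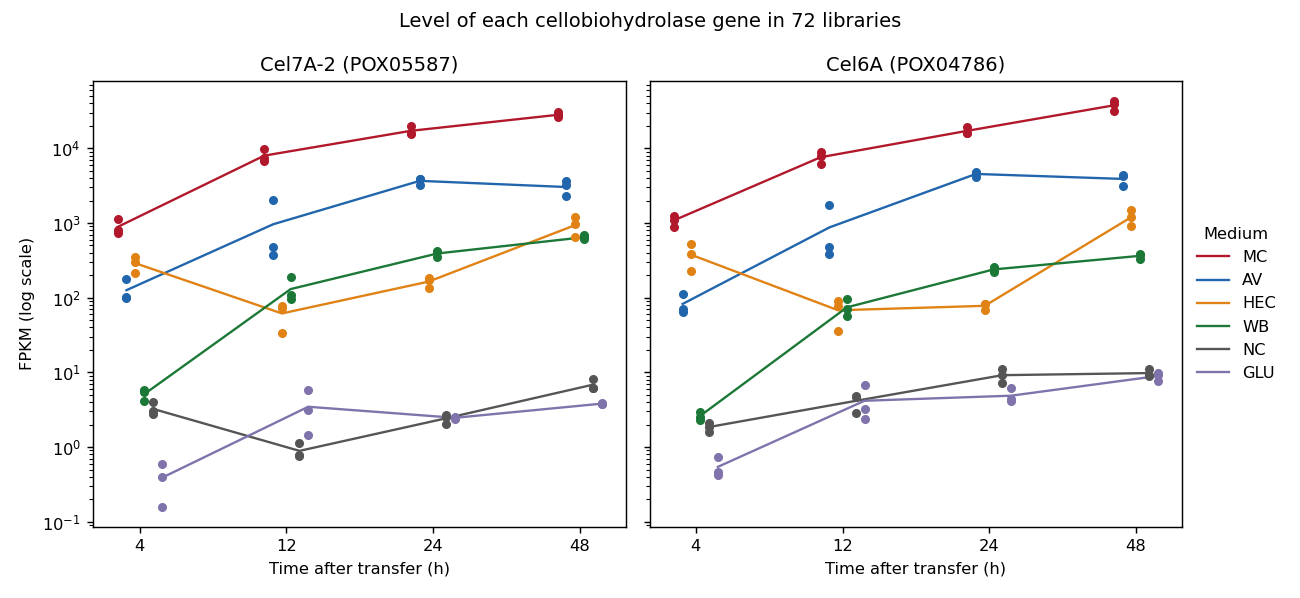
FPKM (log scale) of *Cel7A-2* and *Cel6A* against time after transfer, with a point for each of the 72 libraries and a line through the means of 3 replicates per medium. MC lies highest at every time, reaching means of 28069 and 37619.7 FPKM at 48 h, while NC and GLU stay under 12 FPKM in every library.

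Levels on each carbon source were set against NC of the same harvest with limma on log2(FPKM + 1), and a gene was called differentially expressed at p of at most 0.05 and an absolute log2 fold change of at least 1, the thresholds of the study. The 5 carbon sources at a given time share the same 3 NC libraries. On MC the log2 fold change of *Cel7A-2* (± standard error) was 7.69 ± 0.19 at 4 h, 12.03 ± 0.16 at 12 h, 12.29 ± 0.11 at 24 h and 11.81 ± 0.12 at 48 h. That of *Cel6A* was 8.56 ± 0.16 at 4 h, 10.53 ± 0.19 at 12 h, 10.73 ± 0.15 at 24 h and 11.76 ± 0.14 at 48 h. Both genes were up-regulated at all 4 times, with Benjamini-Hochberg adjusted p over the 8898 genes tested between 3.43e-10 and 6.64e-07. Over all genes tested, 4.96%, 4.47%, 5.95% and 4.32% were called higher on MC than on NC at 4, 12, 24 and 48 h. At 12, 24 and 48 h *Cel7A-2* had the largest log2 fold change of all genes tested and *Cel6A* the next largest, and at 4 h they stood at places 6 and 2. Since NC levels were low, fold changes on this scale are smaller than the ratios of FPKM.

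On AV both genes started lower than on MC and no rise was called after 24 h. *Cel7A-2* on AV had 103, 98.1 and 177 FPKM at 4 h and 2032, 473 and 379 FPKM at 12 h. At 24 h it had 3921, 3831 and 3253 FPKM and at 48 h 3186, 2313 and 3596 FPKM, so that the last pair of harvests overlapped. *Cel6A* on AV had 70.5, 64.3 and 113 FPKM at 4 h and 1766, 471 and 380.0 FPKM at 12 h. It had 4689.6, 4783 and 4145 FPKM at 24 h and 4202, 3121 and 4359.7 FPKM at 48 h, which overlapped too. At 12 h replicate 1 was 4.77 times the mean of the other AV libraries for *Cel7A-2* and 4.15 times for *Cel6A*, the widest spread of any condition with levels above 10 FPKM. Their share of the summed FPKM was 0.8 to 0.925% at 24 h and 0.547 to 0.791% at 48 h.

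Compared with NC, the log2 fold change of *Cel7A-2* on AV was 4.86 ± 0.24 at 4 h, 8.57 ± 0.58 at 12 h, 10.06 ± 0.11 at 24 h and 8.58 ± 0.18 at 48 h. For *Cel6A* it was 4.83 ± 0.22 at 4 h, 7.07 ± 0.55 at 12 h, 8.82 ± 0.15 at 24 h and 8.48 ± 0.15 at 48 h. Both genes were up-regulated at all 4 times (adjusted p between 1.33e-09 and 0.00251), where 4.24%, 3.17%, 4.12% and 5.95% of all genes were called higher at 4, 12, 24 and 48 h. Without AV replicate 1 the values at 12 h were 7.82 for *Cel7A-2* and 6.39 for *Cel6A*, and both calls held.

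On HEC the time course dipped: the genes were high at 4 h, lower at 12 and 24 h, and highest at 48 h. *Cel7A-2* on HEC had 216, 355 and 298 FPKM at 4 h and 77.3, 73.2 and 34.1 FPKM at 12 h. It had 136, 186 and 170.0 FPKM at 24 h and 1203, 966 and 642 FPKM at 48 h. *Cel6A* on HEC had 225, 518 and 380.2 FPKM at 4 h, 91.1, 77 and 35.4 FPKM at 12 h and 68.2, 82.5 and 82.9 FPKM at 24 h. At 48 h it reached 1475, 1218 and 912 FPKM, above every earlier HEC library. From 12 to 24 h the libraries of *Cel7A-2* separated upward and those of *Cel6A* overlapped.

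Compared with NC, *Cel7A-2* on HEC had log2 fold changes of 6.08 ± 0.21 at 4 h, 4.97 ± 0.30 at 12 h, 5.58 ± 0.14 at 24 h and 6.87 ± 0.22 at 48 h. Those of *Cel6A* were 6.96 ± 0.29 at 4 h, 3.66 ± 0.35 at 12 h, 2.97 ± 0.16 at 24 h and 6.78 ± 0.17 at 48 h. All 8 values passed the thresholds (adjusted p between 8.78e-07 and 0.00138), in comparisons where 2.75%, 2.53%, 3.45% and 4.96% of all genes were called higher. The fall from 4 to 12 h on HEC, a comparison chosen after its values were seen, was -2.27 ± 0.33 for *Cel7A-2* and -2.47 ± 0.41 for *Cel6A* (adjusted p = 9.50e-04 and 0.00174), and 6.0% of all genes were called lower there. Between 24 and 48 h, also chosen afterwards, *Cel7A-2* rose by 2.47 ± 0.23 and *Cel6A* by 3.91 ± 0.18 (adjusted p = 1.48e-04 and 3.84e-06), where 5.27% of all genes were called higher. All 7 genes of a conidiation list, described last, were called higher there too, and their part in the rise was not tested.

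On WB the genes were near the NC level at 4 h and rose from 12 h on. *Cel7A-2* on WB had 5.44, 4.08 and 5.74 FPKM at 4 h and 188, 95.6 and 107 FPKM at 12 h. It had 417, 352 and 403 FPKM at 24 h and 682, 650.1 and 603 FPKM at 48 h. *Cel6A* on WB had 2.56, 2.32 and 2.98 FPKM at 4 h and 96.2, 57 and 69.8 FPKM at 12 h. Each harvest lay above the one before it for both genes. *Cel6A* then had 256, 219 and 243 FPKM at 24 h and 369, 388 and 334 FPKM at 48 h. At all 4 times *Cel7A-2* was the higher of the pair in all 3 WB libraries.

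The log2 fold change of *Cel7A-2* on WB compared with NC was 0.52 ± 0.18 at 4 h, 6.06 ± 0.24 at 12 h, 6.84 ± 0.10 at 24 h and 6.37 ± 0.11 at 48 h. For *Cel6A* it was 0.34 ± 0.15 at 4 h, 3.86 ± 0.22 at 12 h, 4.58 ± 0.15 at 24 h and 5.08 ± 0.10 at 48 h. At 4 h neither gene passed the fold threshold (adjusted p = 0.034 and 0.0769), and at the 3 later times both were up-regulated (adjusted p of at most 6.82e-06). The genes called higher on WB made up 11.9%, 6.93%, 5.8% and 4.5% of all genes at 4, 12, 24 and 48 h.

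On NC and GLU both genes stayed under 12 FPKM in every library. *Cel7A-2* on NC had 2.78, 3.01 and 3.97 FPKM at 4 h, 1.14, 0.75 and 0.78 FPKM at 12 h, 2.06, 2.68 and 2.55 FPKM at 24 h and 6.2, 6.18 and 8.14 FPKM at 48 h. *Cel6A* on NC had 1.57, 1.88 and 2.12 FPKM at 4 h, 4.89, 2.89 and 4.69 FPKM at 12 h, 9.15, 11.3 and 7.11 FPKM at 24 h and 11.1, 9.01 and 9.3 FPKM at 48 h. At 12 h *Cel7A-2* was at its lowest NC level while *Cel6A* was above its 4 h level. *Cel7A-2* on GLU had 0.4, 0.16 and 0.6 FPKM at 4 h, 3.11, 1.46 and 5.83 FPKM at 12 h, 2.46, 2.56 and 2.38 FPKM at 24 h and 3.76, 3.94 and 3.74 FPKM at 48 h. *Cel6A* on GLU had 0.42, 0.47 and 0.74 FPKM at 4 h, 3.28, 2.41 and 6.82 FPKM at 12 h, 6.1, 4.41 and 4.12 FPKM at 24 h and 7.77, 9.82 and 9.27 FPKM at 48 h. GLU at 4 h held the lowest mean of both genes, 0.387 FPKM for *Cel7A-2* and 0.543 FPKM for *Cel6A*.

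Compared with NC, the log2 fold change of *Cel7A-2* on GLU was -1.62 ± 0.17 at 4 h, 1.12 ± 0.34 at 12 h, 0.02 ± 0.17 at 24 h and -0.69 ± 0.13 at 48 h. It was called lower at 4 h (adjusted p = 2.65e-04), where 17.5% of all genes were called lower and 7.78% higher. It was called higher at 12 h (adjusted p = 0.0198), where 7.52% were called higher, and without GLU replicate 3 its value was 0.76 and no longer passed the fold threshold. At 24 and 48 h it passed in neither direction, while 4.93% and 5.27% of all genes were called higher. *Cel6A* on GLU had values of -0.89 ± 0.14 at 4 h, -0.06 ± 0.32 at 12 h, -0.79 ± 0.21 at 24 h and -0.12 ± 0.12 at 48 h and was not called at any time, though with 0.1 in place of 1 as the added FPKM its 4 h value was -1.63 and passed. In total *Cel7A-2* was called higher in 16 and lower in 1 of the 20 comparisons with NC, and *Cel6A* higher in 15 and lower in 0. All of these calls also had an adjusted p of at most 0.05.

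**Figure D2:**
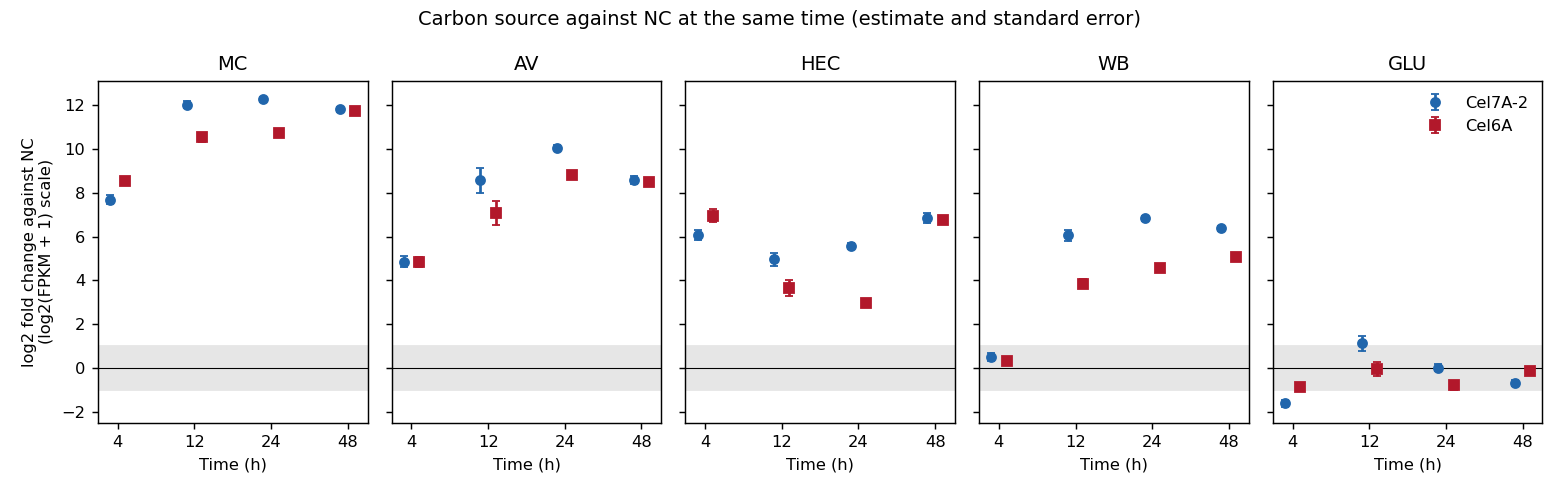
Log2 fold change (log2(FPKM + 1) scale) of *Cel7A-2* (circles) and *Cel6A* (squares) on each carbon source compared with NC at 4, 12, 24 and 48 h, with standard errors from 3 libraries a group. The grey band marks absolute values under 1. On MC the values run from 7.69 to 12.29, on WB both genes lie inside the band at 4 h only, and on GLU only *Cel7A-2* leaves the band, downward at 4 h and upward at 12 h.

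The order of the media changed with time. At 4 h both genes were highest on MC, followed by HEC, AV, WB, NC and GLU, and the 3 libraries of each medium were separate from those of the next. At 12 and 24 h AV and WB had moved ahead of HEC. For *Cel6A* at 12 h the WB and HEC libraries overlapped (means of 74.3 and 67.8 FPKM), as did GLU and NC. At 24 h GLU and NC overlapped for *Cel7A-2* (means of 2.47 and 2.43 FPKM), but not for *Cel6A*, which was lower on GLU. At 48 h HEC was above WB again, clearly for *Cel6A* (means of 1202 and 364 FPKM) and with overlapping libraries for *Cel7A-2* (937 and 645 FPKM). GLU and NC overlapped for *Cel6A* at 48 h, and *Cel7A-2* was lower on GLU.

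Comparisons between cellulosic carbon sources asked how the soluble cellulose ethers, crystalline cellulose and bran differed at equal concentration and time. Compared with AV, MC gave a log2 fold change of *Cel7A-2* of 2.83 ± 0.25 at 4 h, 3.46 ± 0.56 at 12 h, 2.22 ± 0.13 at 24 h and 3.23 ± 0.18 at 48 h. That of *Cel6A* was 3.73 ± 0.22 at 4 h, 3.46 ± 0.52 at 12 h, 1.91 ± 0.12 at 24 h and 3.28 ± 0.18 at 48 h. Both genes were higher on MC at all 4 times (adjusted p between 3.75e-06 and 0.0262), and 1.1%, 1.82%, 5.97% and 3.43% of all genes were called higher. Without AV replicate 1 the 12 h values were 4.21 and 4.15. The difference between MC and AV was smallest at 24 h for both genes.

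MC and HEC differ in the group that substitutes the cellulose chain. The log2 fold change of *Cel7A-2* on MC compared with HEC was 1.61 ± 0.23 at 4 h, 7.06 ± 0.30 at 12 h, 6.70 ± 0.15 at 24 h and 4.95 ± 0.22 at 48 h. For *Cel6A* it was 1.60 ± 0.29 at 4 h, 6.87 ± 0.32 at 12 h, 7.76 ± 0.12 at 24 h and 4.98 ± 0.20 at 48 h. All 8 values were called (adjusted p between 6.69e-08 and 0.00805), where 4.1%, 1.69%, 2.65% and 1.97% of all genes were called higher on MC. From 4 to 12 h both genes rose on MC and fell on HEC, and the interaction between these changes, fitted over the 12 libraries and chosen after the values were seen, was -5.45 ± 0.42 for *Cel7A-2* and -5.28 ± 0.48 for *Cel6A* (HEC minus MC, adjusted p = 9.41e-06 and 3.49e-05). In that fit 2.18% of all genes were called lower.

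Compared with WB, AV gave log2 fold changes of *Cel7A-2* of 4.34 ± 0.24 at 4 h, 2.51 ± 0.60 at 12 h, 3.23 ± 0.10 at 24 h and 2.21 ± 0.16 at 48 h. Those of *Cel6A* were 4.49 ± 0.21 at 4 h, 3.21 ± 0.53 at 12 h, 4.24 ± 0.09 at 24 h and 3.40 ± 0.14 at 48 h. Both genes were higher on AV at each time (adjusted p between 7.88e-08 and 0.013), with 18.0%, 7.6%, 6.82% and 11.0% of all genes called higher. Leaving out AV replicate 1 gave 1.76 and 2.53 at 12 h, and both calls held.

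Within a medium, 48 h was compared with 4 h. The log2 rise of *Cel7A-2* was 5.01 ± 0.18 on MC, 6.74 ± 0.13 on WB, 4.61 ± 0.24 on AV, 1.81 ± 0.15 on GLU and 1.67 ± 0.26 on HEC. Its value on NC was 0.88 ± 0.17, under the fold threshold, and 1.00 and called without NC at 4 h replicate 3. That of *Cel6A* was 5.12 ± 0.17 on MC, 6.66 ± 0.12 on WB, 5.57 ± 0.22 on AV, 2.69 ± 0.13 on GLU, 1.73 ± 0.30 on HEC and 1.92 ± 0.15 on NC. The share of all genes called higher at 48 h was 16.9% on MC, 33.0% on WB, 16.9% on AV, 30.2% on GLU, 25.1% on HEC and 20.9% on NC. On GLU and NC *Cel7A-2* and *Cel6A* remained under 12 FPKM at 48 h.

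Between 24 and 48 h a rise of *Cel6A* was called on MC, and on AV neither gene was called. On AV the log2 fold change was -0.29 ± 0.17 for *Cel7A-2* and -0.23 ± 0.15 for *Cel6A*, neither past the fold threshold (adjusted p = 0.165 and 0.191). Of the 8898 genes tested there, 692 were called lower and 715 (8.04%) higher. On MC *Cel6A* rose by 1.13 ± 0.16 (adjusted p = 8.69e-04), and *Cel7A-2* had 0.71 ± 0.14, under the fold threshold (adjusted p = 0.00405), where 3.75% of all genes were called higher. The interaction, the change on MC minus that on AV, was 1.01 ± 0.22 for *Cel7A-2* and 1.36 ± 0.22 for *Cel6A* (adjusted p = 0.00206 and 2.03e-04), and 12.2% of all genes were called higher. For *Cel7A-2* it lay at the fold threshold. Leaving out single libraries gave 0.83 to 1.14, below 1 in 6 of 12 cases (AV at 24 h replicates 1 and 2, AV at 48 h replicate 2, MC at 24 h replicates 2 and 3, and MC at 48 h replicate 3), and scaling the libraries by the median of ratios gave 0.83.

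**Figure D3:**
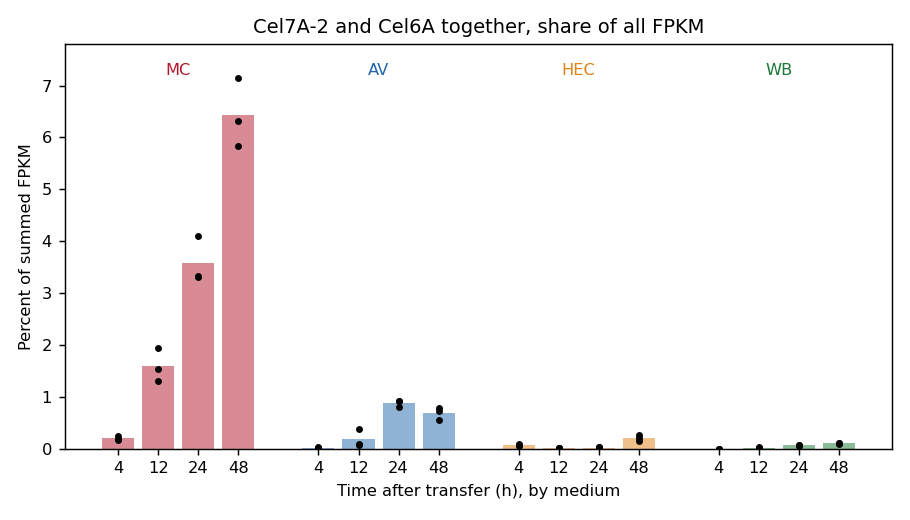
Percent of the summed FPKM of a library taken by *Cel7A-2* and *Cel6A* together on MC, AV, HEC and WB at 4, 12, 24 and 48 h; bars are means of 3 libraries and points single libraries. On MC the share rises from 0.166 to 0.239% at 4 h to 5.84 to 7.14% at 48 h, and on AV it is below 1% throughout.

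The balance between the genes differed by medium. *Cel6A* was above *Cel7A-2* in 45 libraries and below it in 27, and the ratio of their FPKM ranged from 0.443 to 6.01. All 3 libraries had more *Cel6A* in 14 of 24 conditions and more *Cel7A-2* in 7, and the libraries were divided in 3. More *Cel7A-2* was found on WB at every time, on AV and NC at 4 h and on HEC at 24 h. On WB the FPKM ratio of *Cel6A* to *Cel7A-2* stayed between 0.471 and 0.65 in all 12 libraries. On NC it was 0.534 to 0.625 at 4 h, 3.85 to 6.01 at 12 h, 2.79 to 4.44 at 24 h and 1.14 to 1.79 at 48 h. On HEC it was 1.04 to 1.46 at 4 h, 0.443 to 0.5 at 24 h and 1.23 to 1.42 at 48 h. On MC at 24 h the pair was nearly equal (0.985 to 1.03), and at 48 h the ratio was 1.2 to 1.41.

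The log2 of the ratio, with 1 FPKM added to each gene, was compared between media over the 4 times with an exact two-sided permutation test within times (160000 arrangements), and p was adjusted over the 8 comparisons made. On WB it differed from NC by -1.48 (exact p = 2.5e-05, adjusted p = 0.0001) and was lower at 4 of 4 times. The differences were -0.17 at 4 h, -2.20 at 12 h, -2.26 at 24 h and -1.29 at 48 h. Over these times the mean on WB stayed at -0.74, -0.77, -0.71 and -0.83, while that on NC moved from -0.57 to 1.43, 1.55 and 0.47. At 12 h *Cel7A-2* on NC had only 0.75 to 1.14 FPKM. AV was 0.77 higher than WB at 4 of 4 times (exact p = 2.5e-05, adjusted p = 0.0001). AV differed from NC by -0.72 (exact p = 0.00139, adjusted p = 0.0037), lower at 4 of 4 times, with differences of -1.50 at 12 h and -1.24 at 24 h against -0.03 at 4 h and -0.10 at 48 h. That call is lost without 12 h (-0.46, adjusted permutation p = 0.074) or without 24 h (-0.54, adjusted permutation p = 0.074), and with replicate 1 or replicate 2 of every condition left out (-0.64 and -0.73, adjusted permutation p = 0.07). Without AV at 12 h replicate 1 the values were -0.70 for AV against NC, 0.78 for AV against WB and 0.14 for MC against AV (adjusted permutation p = 0.0037, 0.0001 and 0.217). MC against NC had -0.56 (exact p = 0.0392, adjusted p = 0.0627) and HEC against NC -0.78 (exact p = 0.0267, adjusted p = 0.0535), each higher than NC at 4 h and lower at the 3 later times. Without 4 h both passed (-1.03 and -1.34, adjusted permutation p = 0.004 and 0.0035), and with 0.1 as the added FPKM they had -0.76 and -0.99 (adjusted permutation p = 0.0481 and 0.0382). GLU against NC had -0.17 (adjusted permutation p = 0.416), MC against AV 0.16 (adjusted permutation p = 0.163) and MC against HEC 0.22 (adjusted permutation p = 0.111).

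**Figure D4:**
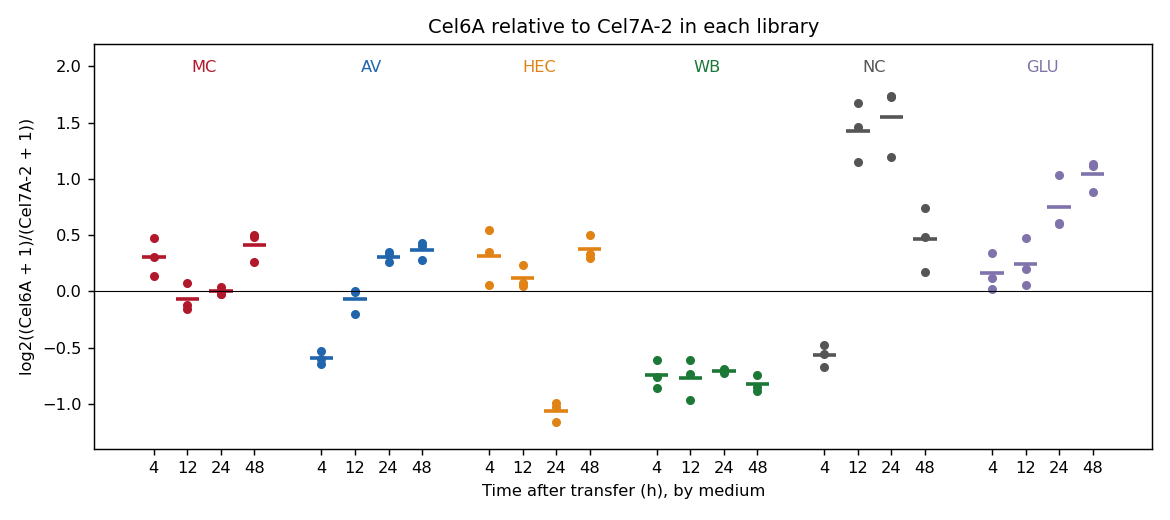
Log2 of (*Cel6A* + 1)/(*Cel7A-2* + 1) in FPKM for each library, by medium and time after transfer; points are libraries and bars the means of 3. All WB libraries lie below 0, NC moves from below 0 at 4 h to above 1 at 12 and 24 h, and HEC drops to about -1.06 at 24 h.

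The third cellobiohydrolase gene, *POX02490/Cel7A-1*, of the same GH7 family as *Cel7A-2*, was low nearly everywhere, and whether reads of the *Cel7A* genes could be shared by sequence likeness was not checked. Outside MC its mean was at most 2.52 FPKM, reached on AV at 48 h. On MC it had 3.07, 1.71 and 1.18 FPKM at 12 h, 8.76, 8.07 and 8.21 FPKM at 24 h and 83, 52.7 and 107 FPKM at 48 h. It was called higher on MC than on NC at 12 h (1.07 ± 0.24), 24 h (2.56 ± 0.16) and 48 h (5.32 ± 0.24), and on WB at 4 h (1.24 ± 0.16), the medium and time at which *Cel7A-2* and *Cel6A* were not called. Its mean at 48 h on MC, 81 ± 27.4 FPKM (SD, n = 3), compared with 28069 ± 2234 FPKM for *Cel7A-2* and 37619.7 ± 5737 FPKM for *Cel6A*.

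The genes most like each member were found by Pearson r over the 24 condition means of log2(FPKM + 1), a description without a test, since the conditions share medium, time and control. *Cel7A-2* and *Cel6A* were each other's nearest gene among all 8898 (r = 0.99). For *Cel7A-2* the next were the endoglucanase genes *POX01166/Cel5B* (0.98), *POX01896/Cel5C* (0.98), *POX05571/Cel7B* (0.97) and *POX05570/Cel45A* (0.97). For *Cel6A* they were *Cel5B* (0.97), *Cel5C* (0.97), *Cel7B* (0.95) and *POX06147/Cel5A* (0.94). In all, 11 genes had r above 0.9 with *Cel7A-2* and 14 with *Cel6A*. *Cel7A-1* had r of 0.60 with *Cel7A-2* and 0.63 with *Cel6A*, at places 159 and 131.

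Other genes of cellulose degradation were grouped into lists, taken from the text of the study and from its tables of genes that differed or were co-expressed in these samples, so their counts are no independent evidence of direction. Over all genes tested, 2.53 to 11.9% were called higher and 1.56 to 21.7% lower in the 16 comparisons of AV, WB, MC and HEC with NC. The shares called lower at 4, 12, 24 and 48 h were 5.1%, 7.19%, 6.27% and 8.92% on AV and 21.7%, 10.1%, 11.1% and 6.36% on WB. For MC they came to 8.22%, 9.54%, 18.2% and 14.5%, for HEC to 6.9%, 1.56%, 4.64% and 3.48% and for GLU to 17.5%, 18.4%, 15.0% and 9.1%. Without AV replicate 1, 4.63% of all genes were called higher and 15.1% lower on AV at 12 h, and no call of an endoglucanase, beta-glucosidase, AA9, swollenin or transporter gene changed.

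Of the 11 endoglucanase genes, 6 to 10 were called higher and 0 or 1 lower in the 16 comparisons of AV, WB, MC and HEC with NC, with medians of 1.49 to 6.80 beside medians of -0.42 to -0.06 over all genes tested. On GLU 1 or 2 were called higher and 0 to 4 lower (medians from -0.51 to 0.34, against -0.31 to 0.10 over all genes). The 4 of highest mean level, *Cel5B*, *Cel5C*, *Cel45A* and *Cel7B*, were called higher in each of the 16 comparisons except *Cel5B* and *Cel5C* on WB at 4 h. At that point *POX05570/Cel45A* had 3.85 ± 0.20 and *POX05571/Cel7B* 3.11 ± 0.27, while *POX01166/Cel5B* had -0.13 ± 0.15 and *POX01896/Cel5C* -0.15 ± 0.20, neither called, like *Cel7A-2* and *Cel6A*. On MC at 48 h *Cel5B* had 13278 ± 2053 FPKM, *Cel5C* 4118 ± 655 FPKM, *Cel45A* 3240.2 ± 392 FPKM and *Cel7B* 3577 ± 465 FPKM (SD, n = 3), below both members.

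Of 9 genes that the study's tables annotate as beta-glucosidases, whose products split cellobiose into glucose, 2 to 4 were called higher and 0 to 2 lower in those 16 comparisons (medians from -0.05 to 0.98). The 2 called lower on WB at 4 h stood beside 21.7% of all genes, those on AV at 12 h beside 7.19% and those on MC at 48 h beside 14.5%. On AV at 12 h the median of the 9 was 0.34, and -0.03 without AV replicate 1. *POX06079* was called higher in all 16, with 9929 ± 126 FPKM on MC at 48 h, whereas *POX06835/Bgl1* was called higher in 1 of the 16, on WB at 48 h (1.31 ± 0.11) and lower on WB at 4 h (-2.80 ± 0.20) and AV at 24 h (-1.11 ± 0.12). *POX03641* reached 5.70 ± 0.11 on AV at 24 h and *POX03062* 2.19 ± 0.07 on MC at 24 h. On GLU 0 or 1 of the 9 were called higher and 0 to 4 lower, beside 4.93 to 7.78% and 9.1 to 18.4% of all genes. Of the 5 genes for lytic polysaccharide monooxygenases of family AA9 and swollenin, which loosen cellulose, 0 to 4 were called higher and 0 or 1 lower (medians from -0.43 to 5.70). *POX02308/Cel61A* had its highest level on WB at 48 h, 2818 ± 123 FPKM, unlike the members, and *POX08485/swollenin* on AV at 24 h, 2567 ± 152 FPKM. *POX08897* had 8.07 ± 0.09 on MC at 48 h, where *POX05968* had -0.42 ± 0.16, not called.

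Both cellodextrin transporter genes, whose products carry cello-oligosaccharides into the cell, were called higher in all 16 comparisons. At 4 h on WB, where *Cel7A-2* and *Cel6A* were not called, *POX06051/CdtC* had 4.88 ± 0.25 and *POX05915/CdtD* 4.50 ± 0.25. On MC at 48 h *CdtC* had 19618 ± 996 FPKM and *CdtD* 635 ± 83.9 FPKM (SD, n = 3). On GLU *CdtC* was called lower at all 4 times and *CdtD* at 4, 12 and 24 h.

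Of the 8 regulator genes, 0 to 4 were called higher and 0 to 4 lower in the 16 comparisons, with medians from -1.04 to 0.78. The 4 called higher were on MC at 24 h, where 5.95% of all genes were, and the 4 called lower on WB at 4 h, where 21.7% of all genes were. *POX01960/ClrB*, an activator of cellulase genes, was called higher on MC at 24 h (1.37 ± 0.09) and at 48 h (mean of 159 ± 10.1 FPKM on MC and 36.3 ± 3.15 FPKM on NC), on AV and WB at the same times, and lower on WB at 4 h (-1.59 ± 0.20). *POX02071/ClrB-2* was called higher at all 4 times on MC, from 1.94 ± 0.13 at 12 h to 2.40 ± 0.12 at 24 h. On AV it was called higher at all 4 times with every library, but without AV replicate 1 its value at 12 h went from 1.33 ± 0.39 to 0.93 ± 0.27 and was no longer called. *POX03837/ClrA* was highest against NC on MC at 4 h (3.59 ± 0.12). *POX05324/XlnR*, an activator of xylanase genes, was not called in any of the 20 comparisons with NC. *POX07254/CreA*, the carbon catabolite repressor, was called lower on GLU at 4 h (-1.26 ± 0.08) and 12 h (-1.66 ± 0.09) and on WB at 4 h (-1.33 ± 0.20), and higher on MC at 24 h (1.03 ± 0.19). *POX03890/AmyR*, an activator of amylase genes, had -3.54 ± 0.11 on MC at 24 h and -3.22 ± 0.22 at 48 h, both called lower. *POX01167/CxrA* was called lower on MC at 12 h (-1.05 ± 0.12) and, without AV replicate 1 but not with it, on AV at 12 h (-1.26 ± 0.23 against -0.96 ± 0.31), and *POX04420/CxrB* was called at no time on MC. On WB and GLU the means of *CxrA* were 12.7 and 11.6 FPKM at 12 h, where NC had 116 FPKM. At 24 h they were 21.6 and 16.8 FPKM against 115 FPKM, and at 48 h 113 and 111 FPKM against 143 FPKM. *CxrB* on WB had a mean of 64.2 FPKM at 4 h, where NC had 225 FPKM, and 317 FPKM against 134 FPKM at 48 h.

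**Figure D5:**
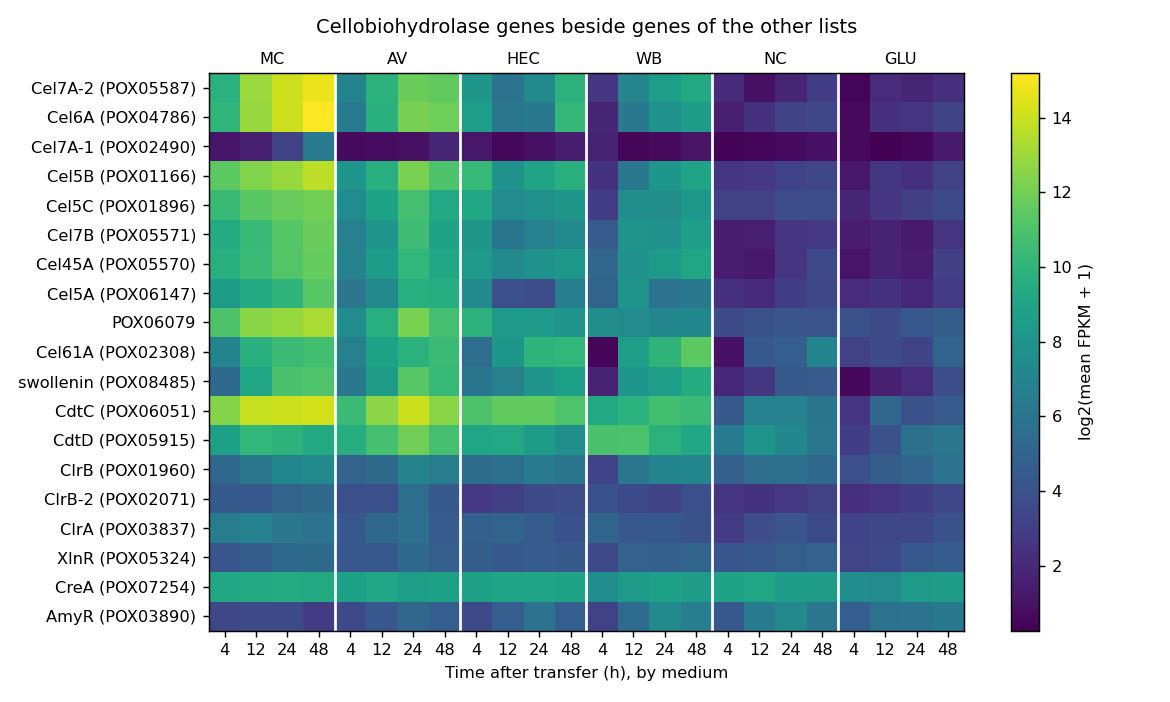
Log2(mean FPKM + 1) of the 3 cellobiohydrolase genes, 5 endoglucanase genes, and selected genes of the other lists in the 24 conditions, by medium and time (columns, h). *Cel7A-2* and *Cel6A* have the widest span of colour, from below 1 on GLU at 4 h to above 14 on MC at 48 h, and the regulator rows, *ClrB* to *AmyR*, span less.

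The 8 genes with the nearest identifier numbers, whose order on the chromosome was not checked, were chosen by number and not taken from the study. The study does place 1 of them, *POX05586*, in the same co-expression module as *Cel7A-2* and *Cel6A*. On AV at most 2 of them were called lower at any time, with median log2 fold changes of -0.54 to -0.24, and without AV replicate 1 *POX05588* (-1.26 ± 0.20) was also called lower at 12 h. On MC 1 or 2 were called higher, *POX05586* at each time with 2.46 ± 0.09 at 48 h, beside 1 to 3 called lower, such as *POX04784* at 12 h (-3.35 ± 0.14) and *POX04785* at 48 h (-1.09 ± 0.09). Over all genes, 8.22%, 9.54%, 18.2% and 14.5% were called lower on MC, so that no difference from the rest is read from these 8. *POX05588* and *POX05589* were called higher on WB at 4 h (4.27 ± 0.29 and 3.45 ± 0.34), *POX05585* passed on MC at 48 h (1.01 ± 0.28), and *POX04787* and *POX04788* were not called on AV, WB, MC or HEC.

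Genes of conidiation, which mark hyphae that form spores, were followed as a check on the state of the mycelium. They came from the text of the study, where they belong to a module of genes co-expressed in these samples. The 7 genes are a part of those it names for conidiation, and others, such as *FlbB*, *FlbD* and *TmpA*, were not followed. The summed FPKM of the 7 genes was 7.3 to 23.95 in all libraries at 4 h. On NC it was 5319 to 8308 at 12 h, 2128 to 2578 at 24 h and 8054 to 12324 at 48 h, and on AV 2571 to 7158 at 12 h, 3043 to 3938 at 24 h and 6622 to 8487 at 48 h. On MC it was 951 to 1551 at 12 h, 1009 to 1241 at 24 h and 3203 to 3988 at 48 h, and on HEC 1404 to 4883 at 12 h, 1687 to 2788 at 24 h and 8689.8 to 10781 at 48 h. On WB it was 19.6 to 26.6 at 12 h, 275 to 599.5 at 24 h and 3528 to 3719 at 48 h, and on GLU 17.3 to 76.4 at 12 h, 28.9 to 40.5 at 24 h and 3125 to 3391 at 48 h. On NC the sum thus peaked at 12 and 48 h with a lower value between, while WB and GLU stayed under 600 FPKM up to 24 h. At 48 h most of it came from 1 gene, *POX01179*, in every medium. On NC, AV and HEC this gene also made up most of the sum at 12 and 24 h. At 12 h its means were 6315 of 6353, 4159 of 4192 and 3299 of 3344 FPKM. On MC it had 1135 of 1201 FPKM at 12 h and 499 of 1136 FPKM at 24 h. The early course of the sum on NC is thus mainly that of *POX01179*. *POX06534/BrlA* on NC had means of 1.53 FPKM at 12 h, 9.45 FPKM at 24 h and 139 FPKM at 48 h. Apart from *POX01179*, each of the 7 genes had a higher mean on NC at each later harvest, without a peak at 12 h.

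Compared with NC, 5 of the 7 were called higher and 1 lower on MC at 24 h, where 5.95% of all genes were called higher and 18.2% lower. All 7 were called lower on WB and on GLU at 48 h, where 6.36% and 9.1% of all genes were. On AV at 12 h *POX01391* (-1.01 ± 0.21) and *POX01179* (-1.21 ± 0.23) were called lower without AV replicate 1, but not with it. Between 24 and 48 h all 7 were called higher on HEC and on AV and 4 on MC, beside 5.27%, 8.04% and 3.75% of all genes. In these comparisons *Cel7A-2* and *Cel6A* were called higher on HEC, neither was called on AV, and *Cel6A* alone was called higher on MC. From 4 to 12 h on HEC, when both members were called lower, 4 of the 7 were called higher, beside 14.0% of all genes. At 48 h *POX06534/BrlA*, the regulator at the start of the pathway, had 82.6 ± 10.5 FPKM on MC and 139 ± 33.7 FPKM on NC. The part of sporulation in the levels of *Cel7A-2* and *Cel6A* was not tested.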

How the data were processed

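The deposited FPKM tables of 72 libraries (1 sample each) were used. By the study's methods the authors enriched mRNA with oligo(dT), sequenced it on BGISEQ-500, aligned reads to the HP7-1 genome and estimated the deposited FPKM values with RSEM. The labels' processing notes name Bowtie2 2.1.0 and RSEM 1.2.12. No FPKM table gives counts, so no count test was run. A gene absent from a table was set to 0. The 8898 genes whose mean over 72 libraries reached 1 FPKM were tested with limma 3.58.1 (R 4.3.3, eBayes with trend) on log2(FPKM + 1), each comparison on its own libraries, with Benjamini-Hochberg adjustment over all genes tested. The Cel6A to Cel7A-2 ratio was tested with an exact permutation test within times (Python 3.11.15). Groups of 3 against 3 at a single time allow an exact p of 0.1 at best, so single times were tested only with limma. The study calls the replicates biological; where they were not separate cultures, p-values measure technical spread. The limma step was tested on simulated data modelled on NC at 12 h. Changes were placed only in genes of higher level than both members had there, so calls at such low levels were not tested.

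Members and lists were chosen with earlier results of these data known. Named genes were both members in every comparison, Cel7A-1, the 5 genes most like each member, the 4 genes of highest mean FPKM in each list, and all regulators, transporters and neighbours by number. The alternatives left out each library in turn, scaled by the median of ratios, added a replicate block, fitted all libraries together, called by adjusted p, dropped the level filter or used a pseudocount of 0.1. Comparisons within HEC over time, the HEC and MC interaction, and the ratio tests and list counts without AV at 12 h replicate 1 were added after seeing the data. Coordinates and sequences are not used here, since the identifiers could not be matched to the RefSeq assembly.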

Additional observations from a re-analysis of the deposited data

Results flagged for a closer look

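Some effects differed between groups. The change from 24 to 48 h was larger on MC than on AV, by 1.01 on the log2 scale for *Cel7A-2* and 1.36 for *Cel6A*, by a test of the interaction. The change from 4 to 12 h was opposite on HEC and MC, with an interaction (HEC minus MC) of -5.45 for *Cel7A-2* and -5.28 for *Cel6A*. For *Cel7A-2* on GLU the sign against NC was not the same at all times. All 3 GLU libraries were below NC at 4 h (log2 fold change -1.62) and above at 12 h (1.12). At 48 h they were below again (-0.69, under the fold threshold). The difference between these times was not tested, and the levels were under 6 FPKM at 4 and 12 h in every library. Without GLU at 12 h replicate 3 the 12 h value was 0.76 and no longer called.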

How the results depend on the processing

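Of 1008 values of single comparisons under the alternatives, 1004 kept their direction and their side of the thresholds. The 4 exceptions were *Cel6A* on GLU at 4 h with a pseudocount of 0.1 (-1.63, then called), *Cel7A-2* on GLU at 12 h without replicate 3 (0.76, no longer called), and *Cel7A-2* on NC at 48 h against 4 h with a pseudocount of 0.1 (1.05) or without NC at 4 h replicate 3 (1.00), then called. The cause was not tested. Scaling by the median of ratios shifted the median of all genes by -0.47 to 0.39 in the comparisons and moved members by up to 0.47. It brought the interaction of MC and AV for *Cel7A-2* to 0.83, under the fold threshold (adjusted p = 0.00771), and leaving out single libraries gave 0.83 to 1.14.

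The ratio of *Cel6A* to *Cel7A-2* was no longer called for AV against NC without 12 h (-0.46) or 24 h (-0.54). With replicates left out it ranged from -0.78 to -0.64, and the call was also lost without replicate 1 or replicate 2. MC and HEC against NC became called with a pseudocount of 0.1 (-0.76 and -0.99) or without 4 h (-1.03 and -1.34). Leaving out AV at 12 h replicate 1 took the genes called lower on AV at 12 h from 640 to 1348 and those called higher from 282 to 412. Of the 5 genes most like *Cel6A*, 3 were kept with linear FPKM and 3 with ranks.

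Across the 20 comparisons with NC, same-numbered libraries did not generally deviate together (mean r 0.06, from -0.37 to 0.64). Every r was above 0.1 in 1 comparison, AV against NC at 12 h (0.17 to 0.64). The numbers were not taken as pairs. With a replicate block, 0 of 84 calls changed, and the interaction was 1.01 for *Cel7A-2* (adjusted p = 0.00328) and 1.36 for *Cel6A* (adjusted p = 0.000318). Without read counts, precision below about 1 FPKM is unknown.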
